A study of Mus musculus with 12 samples.

Results

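The genes of the lysosome and of its transcriptional regulators were examined across 4 groups of E14 mouse embryonic stem cells. They were 44 genes, chosen as the rows of the deposited count table whose symbol was on a list of 3 regulators (Tfeb, Tfe3 and Mitf) and 41 structural genes of the organelle, out of 24421 gene rows. The 41 comprised 6 membrane proteins, 9 peptidases, 11 glycosidases, 4 sulfatases, 6 genes of lipid handling, progranulin (Grn) and 4 subunits of the vacuolar proton pump (v-ATPase). All 44 had enough counts to be tested, and all are protein-coding in the mouse annotation (GENCODE vM21, build GRCm38). Among those described most, Tfeb lies at chr17:47737030-47792419, Manba at chr3:135485611-135571404, Arsb at chr13:93771630-93943016, Atp6v1a at chr16:44085402-44139705 and Ctsc at chr7:88278085-88310888. The cells' Mettl3 gene was either intact (wild type, WT) or knocked out (KO); Mettl3 is the catalytic part of the complex that methylates adenosines in messenger RNA (N6-methyladenosine). Each genotype was grown in medium with serum and LIF (called FBS) or held for 2 weeks in 200 nM INK128, an inhibitor of the kinase mTOR that puts these cells into a paused, slow-growing state. The resulting groups, WT FBS, WT paused, KO FBS and KO paused, had 3 samples each, and every sample was RNA from 200000 cells with ERCC spike-in RNA added to the extracted RNA. The labels do not say whether the 3 samples of a group were separate cultures, so p-values measure only the spread between these samples.

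The lysosome degrades proteins, glycans and lipids with hydrolases that work at the acid pH made by the v-ATPase. Its membrane is also where the growth kinase complex mTORC1 is switched on by nutrients, through the Rag GTPases and the Ragulator scaffold. Active mTORC1 phosphorylates Tfeb and its relatives Tfe3 and Mitf and so holds them in the cytoplasm, and when it is inhibited they enter the nucleus and bind E-box sequences (CACGTG) near many lysosomal genes. This control acts on the proteins' location, which RNA counts do not measure.

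Libraries held 10615548 to 39566713 counts. In CPM (counts scaled to a common library size of 1000000), Mettl3 RNA, the check of the genotype, was 33.9 ± 3.17 (mean ± SD, n = 3) in WT and 27.2 ± 1.61 in KO cells in FBS. When paused it was 35.9 ± 2.85 in WT and 30.1 ± 1.31 in KO cells, so the message of the targeted gene was still present in KO cells. The cells carried stem cell markers in all 12 libraries (6 markers summing to 1640 to 3360 CPM). Macrophage markers, of interest because macrophages are rich in lysosomes, summed to at most 2.14 CPM over 8 genes, with Lyz2 and Tyrobp at 0 counts in all 12 libraries. Markers of extraembryonic endoderm, an absorptive lineage also rich in lysosomes, (11 genes) summed to 107 CPM in WT FBS replicate 1 and to 52.3 and 72.7 in that group's other libraries, with Ttr at 0 counts in all groups. The sum was 29.2 to 33.2 CPM for KO FBS, 14.4 to 21 for WT paused and 26.1 to 27.5 for KO paused. Trophoblast markers summed to 190 to 245 CPM in KO FBS and 30.4 to 72.2 elsewhere, with 72.2 in WT FBS replicate 1 against 40.7 and 41.4 in replicates 2 and 3. Fibroblast markers (7 genes) summed to at most 20.1 CPM, in KO FBS, and neural markers (6 genes) to 60.7 to 222. The neural sum was 60.7 in WT FBS replicate 1 against 107 and 129 in replicates 2 and 3, and the stem cell sum 2480 against 2780 and 2840. The part of these markers in the results below was not tested, and in such bulk samples fewer cells of a type and less RNA per cell cannot be told apart.

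Values are given on 2 scales. On the relative scale a library is scaled to its own cellular RNA, so the changes of all genes centre near 0. On the per-cell scale it is scaled to the ERCC counts. A gene was called when the adjusted p of edgeR's quasi-likelihood test over 15281 genes was under 0.05. Of the 44 genes, 8 share at least 10% of their exon bases with another gene (Ctsd with a gene on its own strand, Ctsa, Ctsb, Ctsl, Hexa, Sgsh, Arsa and Arsb with genes on the opposite strand). Because the sources used here do not give the strand setting, the counts of these 8 may include reads of the other gene.

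A single library stood apart in these genes. In WT FBS replicate 1 the 44 genes took 0.289% of the gene counts, against 0.164% in replicate 2 and 0.166% in replicate 3. Their summed level there was 3299 CPM, against 1829 and 1763 CPM in the group's other libraries. It was 1802 to 1882 CPM for KO FBS, 2455 to 2617 for WT paused and 2127 to 2329 for KO paused. In that library 18 of the 44 genes were more than 2-fold above the mean of replicates 2 and 3, where 5.56% of all tested genes were, and the median of the 44 was 0.80 on the log2 scale. The library also stood apart beyond these genes. In it 10.2% of all tested genes lay over 2-fold from that mean in either direction. Set against the mean of the group's other libraries in the same way, WT FBS replicates 2 and 3 had 1.98% and 1.58%, and libraries of the other groups at most 0.301%. Hexa, the alpha subunit of beta-hexosaminidase, was 7.44-fold higher there (115 CPM against 15 and 16). Ctsa, a carboxypeptidase that also protects Neu1 and Glb1, was 4.43-fold higher, and the heparan sulfate glycosidase Naglu was 4.05-fold higher. The regulators differed less, with ratios of 1.15 for Tfeb, 0.847 for Tfe3 and 1.55 for Mitf. With 0.5 CPM added to each level, as for the counts above, no library of the other 3 groups had a member more than 2-fold from the mean of its group's other libraries. In plain CPM this held except for Ctsh, at under 1 CPM, in WT paused replicate 2 and KO paused replicates 1 and 2. Of 74 tested genes of the same pathway outside the 44, 23 were more than 2-fold higher in this library, 59 were higher at all and the lowest ratio was 0.508. Examples are the Rag GTPase gene Rragd (77.8 CPM against 20.9 and 20.2) and the folliculin partner Fnip1 (163 against 48 and 49.7), while Rraga (ratio 0.514) and Lamtor2 (0.614) were lower. Reads of the ribosomal RNA gene Rn45s and of Lars2 together made up 30.7% of its gene counts, against 19.2% and 16.7% in WT FBS replicates 2 and 3. They made up 30.5%, 28.8% and 24.4% in replicate 1 of KO FBS, WT paused and KO paused, where the 44 genes did not stand apart. The part of these reads in the levels of WT FBS replicate 1 was not tested. Counts that use WT FBS are therefore given with and without this library, and so are most single genes described where it ends or makes a call or moves the fold strongly. The library was singled out by the levels of these same genes. Leaving it out lowers the WT FBS level of most of them, so results without it are not independent of that choice.

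**Figure D1:**
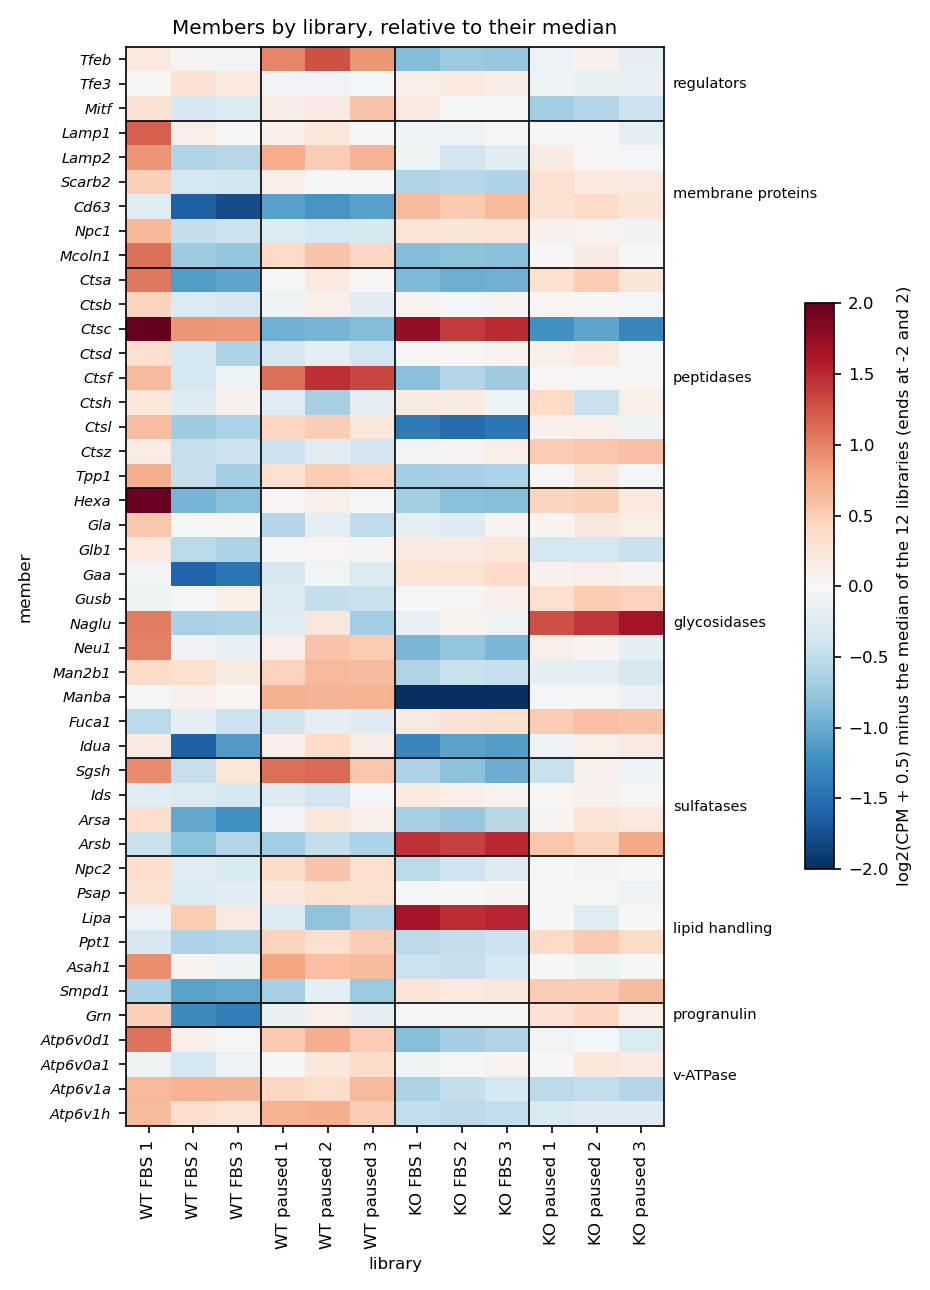
Rows are the 44 genes by role, columns the 12 libraries, and colour is log2(CPM + 0.5) minus the gene's median over the 12 libraries, with the scale ending at -2 and 2. WT FBS replicate 1 is red in most rows while replicates 2 and 3 beside it are mostly blue; Manba is lowest in the 3 KO FBS libraries and Ctsc is low in all 6 paused libraries.

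Levels can be compared between genes only per length, here as CPM per kb of annotated exons. Lamp1, the main glycoprotein of the lysosomal membrane, was highest in all 4 groups: 129 ± 64 CPM per kb for WT FBS, 95.3 ± 8.37 for WT paused, 84.2 ± 2.78 for KO FBS and 84.7 ± 6.67 for KO paused. The aspartic protease gene Ctsd and the saposin precursor Psap took the next places, with Ctsd second in 3 groups and Psap second in WT paused (56.8 ± 2.24, against 48.2 ± 3.04 for Ctsd). In WT FBS their levels (53.9 ± 19.3 for Ctsd and 45.5 ± 10.7 for Psap) did not differ beyond their spread. Ctsh, a cysteine protease gene, was lowest in every group, between 0.052 and 0.112 CPM per kb, so these data show little about it.

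Among the regulators, Tfeb RNA was the most responsive. In WT cells its level was 19.9, 17.9 and 16.6 CPM in FBS and 34.3, 42.5 and 32.3 when paused. In KO cells it was 9.27, 10.1 and 9.96 CPM in FBS and 15.9, 18.3 and 15.2 when paused. The 4 groups of libraries did not overlap except KO paused with WT FBS, and the WT paused libraries were the highest. On the relative scale, pausing raised Tfeb by 1.01 ± 0.12 (log2 ± SE; adjusted p = 0.000112) in WT cells and by 0.75 ± 0.13 (adjusted p = 0.00046) in KO cells, and the difference between both effects, -0.26 ± 0.18, was not called (adjusted p = 0.344). KO cells had less of it than WT cells in FBS (-0.89 ± 0.13) and when paused (-1.14 ± 0.12). Leaving out WT FBS replicate 1, the rise in WT cells was 1.05 ± 0.11. Per cell, Tfeb in paused WT cells stood at 100.0 ± 36.6% of its WT FBS mean, and in KO cells at 58.6 ± 22.1% in FBS and 58.3 ± 10.9% when paused, and neither pausing effect was called (0.00 ± 0.33 in both genotypes). The per-cell differences between genotypes, -0.77 in FBS and -0.78 when paused, were not called (adjusted p = 0.0631 and 0.0531) unless the replicate number was kept as a block (-0.85 with adjusted p = 0.00231, and -0.75 with adjusted p = 0.00622).

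Tfe3, the relative best known in embryonic stem cells for its part in leaving pluripotency, was the most abundant regulator message per length in all 4 groups and moved little. WT cells had 85.6, 105 and 97.2 CPM in FBS and 81.3, 81.9 and 83.7 when paused, and KO cells had 92.5, 96.5 and 93.8 in FBS and 79.1, 76.2 and 76.3 when paused. The groups lay close, with the paused libraries below the FBS libraries in both genotypes. It fell by 0.22 ± 0.082 in WT cells (adjusted p = 0.0475) and by 0.29 ± 0.081 in KO cells (adjusted p = 0.0129) on the log2 scale, and the genotypes were not called different. Mitf, the melanocyte factor of the family, had 15, 9.52 and 9.91 CPM in WT cells in FBS and 13.6, 13.7 and 18.4 when they were paused, which overlap. In KO cells it had 13.9, 12.1 and 12.3 CPM in FBS and 7.34, 7.95 and 8.93 when paused. It fell by 0.65 ± 0.18 in KO cells (adjusted p = 0.0107), with no overlap between libraries. In WT cells its change of 0.45 ± 0.18 was not called with all libraries and was called when WT FBS replicate 1 was left out (0.67 ± 0.13, adjusted p = 0.000214). The difference between both pausing effects was called (-1.10 ± 0.25, adjusted p = 0.011).

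**Figure D2:**
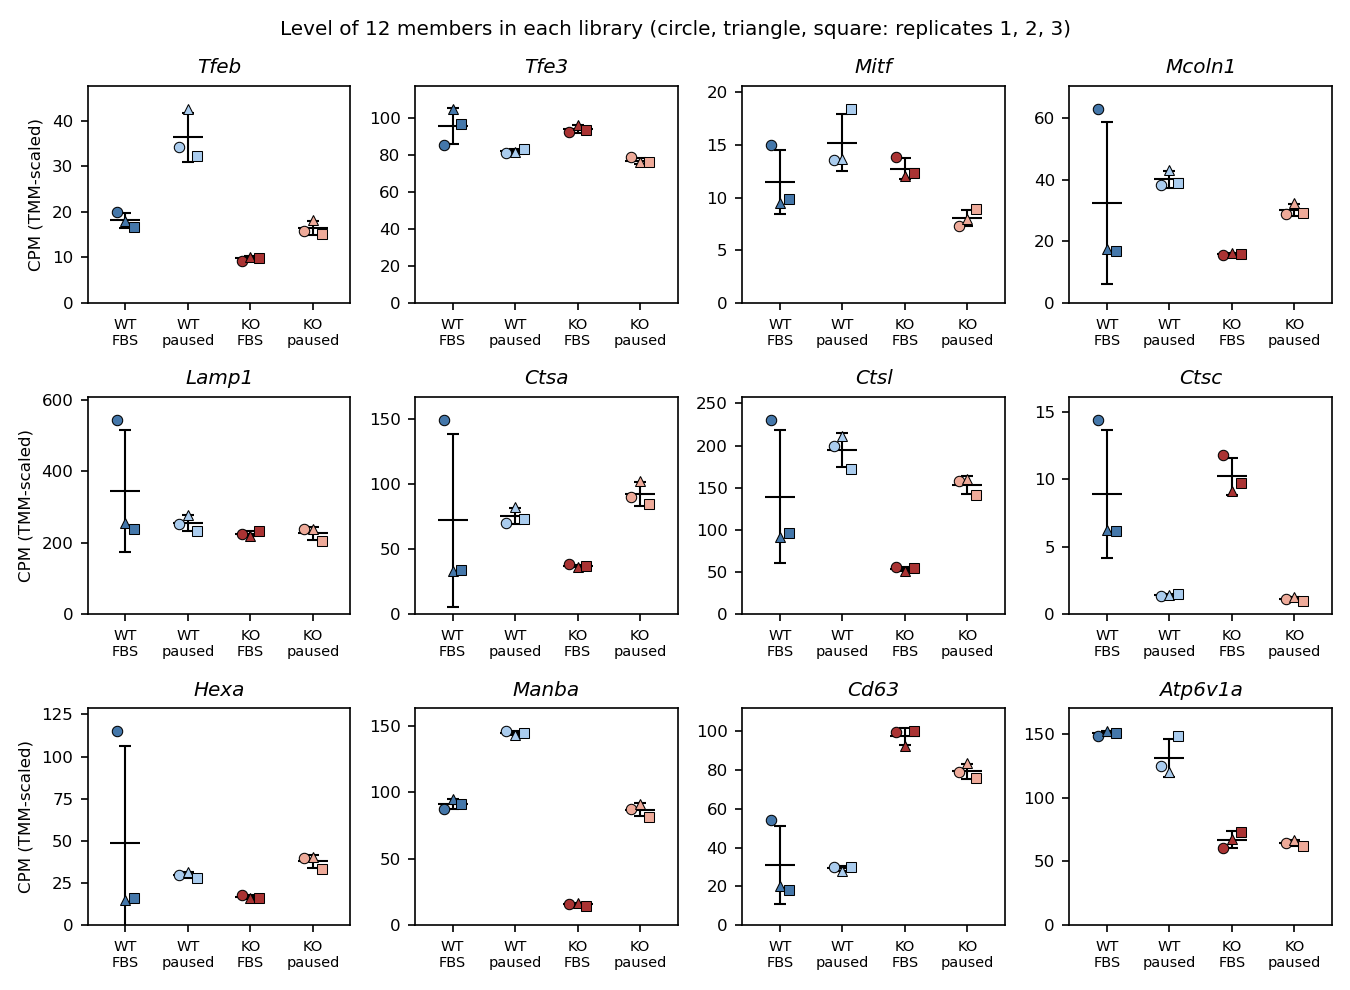
TMM-scaled CPM of 12 genes (vertical axes, each starting at 0) in the 4 groups, with 1 symbol per library and black bars for the mean ± SD (n = 3). The circle of WT FBS replicate 1 lies far above the triangle and square of that group for Mcoln1, Lamp1, Ctsa, Ctsl, Ctsc, Hexa and Cd63, and close to them for Tfeb, Manba and Atp6v1a.

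The first comparison asked how the lysosomal messages changed on pausing WT cells. With all libraries, 8 of the 44 rose and 5 fell, while 18% of all tested genes were called higher and 20.2% lower, so the share of the 44 was near the background for rises and below it for falls. The median of the 44 was 0.17 and that of all tested genes -0.02 on the log2 scale. Leaving out WT FBS replicate 1, 29 of the 44 rose and 6 fell, against 28.2% and 31.7% of all tested genes, and the median was 0.53 against -0.02. That library was singled out because most of these genes were high in it. Leaving it out raises their pausing change by that choice, so this count is no independent result. All 13 genes called with all libraries were called in the same direction without it. Leaving out any other WT library gave 4 to 6 genes higher and 3 or 4 lower, among them WT FBS replicate 2 (4 higher), WT FBS replicate 3, WT paused replicate 2 and WT paused replicate 3 (5 higher each), and WT paused replicate 1 (3 lower). The shares of all tested genes in those fits are not given here. When only the 6 WT libraries were fitted, 4 were called higher and 2 lower, against 8.93% and 9.61% of all tested genes.

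The genes that rose in WT cells with all libraries included, besides Tfeb, the cysteine protease gene Ctsf (8.81 to 18.0 CPM in FBS and 24.7 to 31.7 paused; 1.24 ± 0.21), Idua, which cleaves iduronic acid from heparan and dermatan sulfate (1.03 ± 0.36), and Ppt1, which removes palmitate from proteins (0.98 ± 0.10). Manba, the beta-mannosidase, measured 87.3, 94.7 and 91.0 CPM in FBS and 146, 143 and 145 when paused, a rise of 0.67 ± 0.078. The deepest fall was that of Ctsc, a dipeptidyl peptidase that activates serine proteases of immune granules. Ctsc measured 14.4, 6.22 and 6.15 CPM in FBS and 1.36, 1.40 and 1.49 when paused, a fall of 2.58 ± 0.34 (2.12 ± 0.19 without WT FBS replicate 1). Lipa, the acid lipase for cholesteryl esters and triglycerides, fell by 0.93 ± 0.21. The alpha-galactosidase Gla fell by 0.64 ± 0.18 and the beta-glucuronidase Gusb by 0.41 ± 0.10. All these genes were also called without WT FBS replicate 1. In the 6 WT libraries alone, 1 of the 11 glycosidases was called higher and 0 lower, so Gla and Gusb were not called there, nor were Idua and Manba both. Idua measured 13.2, 3.39 and 5.02 CPM in FBS and 12.7, 15.4 and 12.9 when paused, which overlap.

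Among the membrane proteins 0 of 6 were called by edgeR with all libraries (0 also at an unadjusted p under 0.05), and 4 of 6 rose without WT FBS replicate 1. In that fit 28.2% of all tested genes were called higher, and the count depends on how the library was chosen. Mcoln1, the calcium channel of the lysosomal membrane, measured 62.8, 17.6 and 16.8 CPM in WT FBS and 38.3, 43.1 and 38.8 in WT paused. The paused libraries thus lay above replicates 2 and 3 and below replicate 1, and the change was 0.35 ± 0.38 (adjusted p = 0.493) with it and 1.20 ± 0.090 (adjusted p = 6.47e-10) without it. Lamp2, the receptor of chaperone-mediated autophagy, gave 0.58 ± 0.30 with all libraries and 1.22 ± 0.092 without that library, and was also called with the replicate number as a block (0.69, adjusted p = 0.0483). Lamp1 measured 543, 256 and 238 CPM in FBS and 253, 277 and 234 when paused, so its paused libraries overlapped with replicates 2 and 3, and it was not called either way (0.03 ± 0.080 without replicate 1). Npc1, the cholesterol exporter, measured 88.6, 40.0 and 41.2 CPM in FBS and 46.1, 43.5 and 44.7 when paused, and was not called either way (0.13 ± 0.073 without replicate 1).

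The peptidases divided in the same manner. Ctsl, a cysteine protease gene, measured 230, 91.3 and 96.1 CPM in FBS and 200, 211 and 172 when paused. Its change of 0.49 ± 0.27 with all libraries was not called, and that of 1.04 ± 0.086 with replicate 1 left out was (adjusted p = 2.38e-09). Ctsa and the tripeptidyl peptidase gene Tpp1 gave 1.15 ± 0.088 and 0.99 ± 0.085 without that library, and with it 0.09 and 0.44, not called. Ctsd measured 178, 110 and 91.9 CPM in FBS and 111, 122 and 108 when paused, overlapping groups, and was not called either way. Of the 11 glycosidases 7 rose and 2 fell without the library, with Idua (1.69 ± 0.17) and the glycogen-degrading Gaa (1.30 ± 0.089) highest. With it 3 rose and 2 fell, and Gaa (0.68) was not called. Hexa was turned by that library: its change was -0.67 ± 0.59 with it, not called, and 0.92 ± 0.10 without it, called higher. All 6 genes of lipid handling were called without it, Lipa lower and Npc2, Psap, Ppt1, Asah1 and Smpd1 higher by 0.52 to 1.06. Of the v-ATPase subunits, also without it, 3 of 4 rose by 0.33 to 0.52, while Atp6v1a, the catalytic subunit, fell by 0.22 ± 0.086. With all libraries 2 genes of lipid handling rose and 1 fell, and of the v-ATPase subunits 1 rose and 0 fell. Over all tested genes 18% were called higher and 20.2% lower with all libraries, and 28.2% and 31.7% without WT FBS replicate 1. That library was chosen by the levels of these same genes, so the counts by role without it are no independent result.

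**Figure D3:**
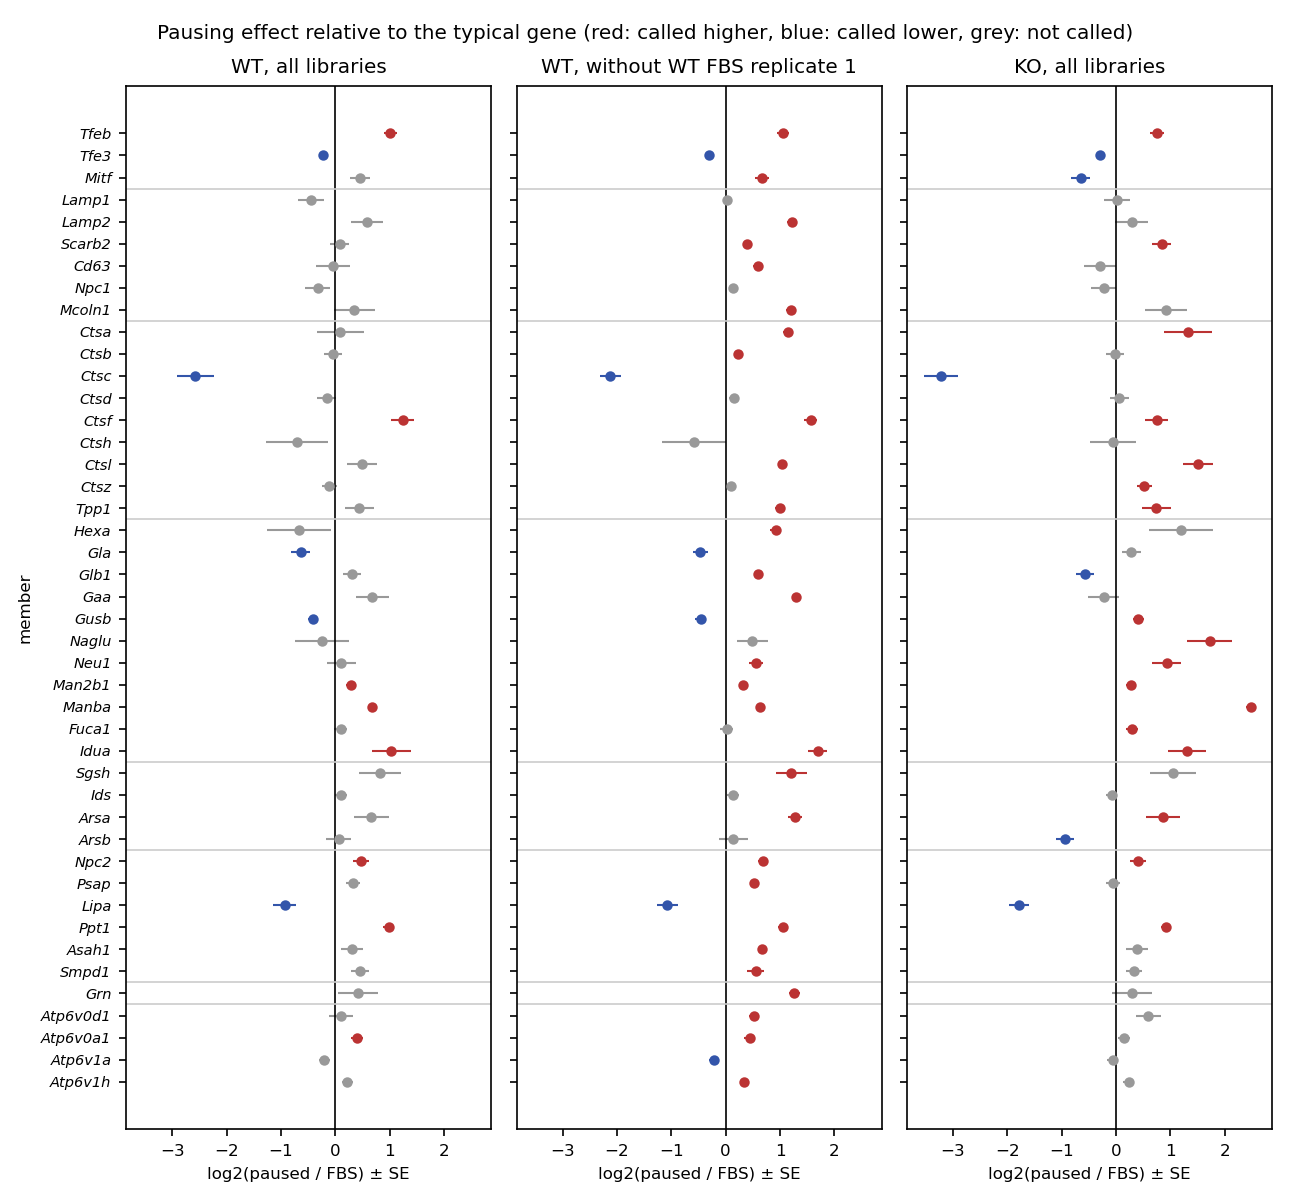
Log2 ratio of paused to FBS (horizontal axes, ± SE) for the 44 genes in WT cells with all libraries, in WT cells without WT FBS replicate 1 and in KO cells, on the relative scale; red, blue and grey mark genes called higher, called lower and not called. The number of red points goes from 8 to 29 between the first and second panels and is 17 in the third, and Ctsc is the lowest point in all 3.

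In KO cells, which share no library with the WT comparison, 17 of the 44 rose and 6 fell on pausing, against 23.3% and 19.4% of all tested genes, and the median was 0.29 (0.03 over all tested genes). That fit shares its estimate of spread with WT FBS replicate 1. With the 6 KO libraries alone, 27 rose and 9 fell, against 31.7% and 29.8% of all tested genes. Leaving out KO FBS replicate 1, KO FBS replicate 2, KO paused replicate 1 or KO paused replicate 2 gave 11 higher in each case, leaving out KO FBS replicate 3 gave 10 and leaving out KO paused replicate 3 gave 12. The shares of all tested genes in these fits are not given here, so the lower counts cannot be read as particular to the members. Set beside the WT fit without WT FBS replicate 1, the KO-only fit called 22 genes higher in both genotypes and 3 (Tfe3, Ctsc and Lipa) lower in both. It called 4 higher in WT and lower in KO (Mitf, Cd63, Glb1 and Gaa) and 2 lower in WT and higher in KO (Gla and Gusb). With the KO fit of all libraries, 13 were higher in both and 3 lower in both. Then 2 were higher in WT and lower in KO, and 1 the reverse. The share of all tested genes called in both genotypes was not counted, so these overlaps have no background beside them.

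Manba led in KO cells, at 15.7, 16.5 and 14.6 CPM in FBS and 87.5, 91.5 and 81.5 when paused, a rise of 2.48 ± 0.083 (adjusted p = 8.49e-09). Naglu followed, at 1.89, 2.30 and 2.04 CPM in FBS and 5.97, 6.65 and 7.95 when paused (1.72 ± 0.41), and Ctsl went from 55.8, 50.9 and 54.5 to 158, 160 and 141 (1.51 ± 0.28). Ctsa rose from 38.2, 36.2 and 36.7 to 90.1, 102 and 84.5 CPM (1.32 ± 0.44). In these 4 genes every paused KO library lay above every KO FBS library. Mcoln1 measured 15.6, 16.2 and 16.0 CPM in KO FBS and 28.8, 32.5 and 29.2 in KO paused, without overlap; its change of 0.92 ± 0.38 was not called in the fit of all libraries (adjusted p = 0.0688) and was called in the KO libraries alone (0.90 ± 0.077, adjusted p = 1.35e-07). Npc2, the luminal partner of Npc1 in cholesterol transfer, was called higher (0.41 ± 0.15) but not with the replicate block (adjusted p = 0.0519).

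The falls in KO cells were led by Ctsc (11.8, 9.11 and 9.77 CPM in FBS, 1.08, 1.26 and 0.975 when paused; -3.22 ± 0.32) and Lipa (11.5, 10.1 and 10.4 CPM in FBS, 3.10 ± 0.348 when paused; -1.78 ± 0.18). Both are the genes that fell deepest in WT cells too. Arsb, the sulfatase for dermatan and chondroitin sulfate, fell by 0.94 ± 0.16, Mitf by 0.65 and the beta-galactosidase Glb1 by 0.57 ± 0.17. Lamp1 (224, 218 and 233 CPM in FBS, 237, 237 and 206 paused), Ctsd (143, 143 and 147 in FBS, 153, 161 and 138 paused) and Npc1 (67.1, 66.1 and 67.2 in FBS, 58.9, 58.2 and 53.3 paused) were not called with all libraries. Of these, Npc1 was called lower in the KO libraries alone (-0.25 ± 0.060).

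The promoters of the members were searched for the E-box because it is the letter sequence that Tfeb, Tfe3 and Mitf bind. RefSeq windows from 250 bases before to 50 bases after a start site (build GRCm38.p6) matched 39 of the 44 genes by symbol. CACGTG, which reads the same on both strands, was found in 14 of the 39 (35.9%), against 11.5% of 11379 tested genes with a window. TCACGTG, which contains CACGTG and was searched on both strands, was found in 12 (30.8%, against 6.65%). Of the 21 copies of CACGTG, 15 lay within 100 bases of the start site, and 5 genes had 2 copies or more. A match is a description of the letters, not evidence of binding. The stretches from 150 bases before to 20 bases after the start site are shown for 5 genes, with CACGTG in capitals: Mcoln1 and Ctsa with 2 copies each, Lamp1, which has 4 and was not called on pausing in either genotype on the relative scale, the v-ATPase subunit Atp6v0d1 with 1 and Hexa, the gene farthest out in WT FBS replicate 1, with none.
Mcoln1, chr8:3500369-3500538, plus strand: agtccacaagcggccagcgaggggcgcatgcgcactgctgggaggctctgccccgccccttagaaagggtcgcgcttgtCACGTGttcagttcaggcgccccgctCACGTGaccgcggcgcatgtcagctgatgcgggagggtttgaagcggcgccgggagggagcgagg
Ctsa, chr2:164833623-164833792, plus strand: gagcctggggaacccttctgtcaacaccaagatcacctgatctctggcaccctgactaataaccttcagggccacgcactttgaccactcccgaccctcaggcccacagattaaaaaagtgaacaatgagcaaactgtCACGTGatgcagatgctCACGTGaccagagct
Lamp1, chr8:13159011-13159180, plus strand: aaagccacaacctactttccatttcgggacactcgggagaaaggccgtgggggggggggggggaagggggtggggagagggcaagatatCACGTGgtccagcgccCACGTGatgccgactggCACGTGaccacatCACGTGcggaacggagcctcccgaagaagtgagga
Atp6v0d1, chr8:105566045-105566214, minus strand: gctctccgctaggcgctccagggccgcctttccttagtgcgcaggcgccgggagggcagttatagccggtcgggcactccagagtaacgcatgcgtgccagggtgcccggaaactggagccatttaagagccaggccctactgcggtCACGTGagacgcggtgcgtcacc
Hexa, chr9:59539390-59539559, plus strand: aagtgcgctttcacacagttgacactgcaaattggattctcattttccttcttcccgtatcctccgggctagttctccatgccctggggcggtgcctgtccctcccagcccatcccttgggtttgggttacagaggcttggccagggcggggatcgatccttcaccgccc

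Genes called higher on pausing were found with and without these letters. Without WT FBS replicate 1, 9 of the 14 genes with CACGTG were called higher in WT cells (64.3%, median 0.82), and so were 17 of the 25 without it (68.0%, median 0.55). Over all tested genes the shares were 31.4% with CACGTG and 27.0% without it. In KO cells the counts were 5 of 14 (35.7%, median 0.67) and 12 of 25 (48.0%, median 0.29), and the shares over all tested genes 23.3% and 22.8%. More than 2-fold above the other WT FBS libraries, replicate 1 had 9 of the 14 genes with the letters (median 1.08) and 8 of the 25 without them (median 0.55). These differences were not tested, and with all libraries 1 of the 14 and 7 of the 25 were called higher in WT cells. The counts without WT FBS replicate 1 are not independent of how that library was chosen.

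The second question was how KO cells differed from WT cells in the same medium. In FBS, 8 of the 44 were higher in KO and 15 lower, against 28.4% and 29.4% of all tested genes, and the median was -0.08 (-0.04 over all tested genes). When WT FBS replicate 1 was left out the counts were 20 higher and 12 lower, against 34.2% and 34.9%, with a median of 0.21. Paused, where that library takes no part beyond the spread, 9 were higher and 12 lower, against 27.9% and 23.9%; the paused libraries alone gave 16 higher and 18 lower, against 34.1% and 31.4%. In FBS the share of the 44 called higher was thus below that of all tested genes with all libraries (18.2%) and above it without WT FBS replicate 1 (45.5%), and the direction varied by gene. Leaving that library out lowers the WT FBS level of most of the 44 and so raises KO against WT by that choice. The counts without it are therefore no independent result.

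Some genotype differences were large and were seen in both media. Arsb measured 1.25, 0.855 and 1.09 CPM in WT FBS against 6.01, 5.65 and 6.26 in KO FBS (2.54 ± 0.18), and 0.974, 1.21 and 1.04 in WT paused against 2.99, 2.74 and 3.53 in KO paused (1.53 ± 0.20). Cd63, a tetraspanin of lysosomes and exosomes, measured 54.0, 20.2 and 18.3 CPM in WT FBS and 99.5, 92.4 and 100 in KO FBS (1.70 ± 0.30). When paused it measured 29.9, 27.9 and 30.0 in WT and 79.0, 83.5 and 75.8 in KO (1.44 ± 0.30). The FBS difference was 2.36 ± 0.080 without WT FBS replicate 1. For both genes all KO libraries lay above all WT libraries in each medium. Smpd1, the acid sphingomyelinase, was also higher in KO in FBS (1.25 ± 0.16) and when paused (1.13 ± 0.16). Lipa was higher by 1.41 ± 0.18 in FBS and by 0.57 ± 0.22 when paused, where the call was lost with the replicate block (adjusted p = 0.0586). Also higher were the fucosidase Fuca1 (0.67 ± 0.11 in FBS, 0.86 ± 0.12 paused), in FBS Gaa (1.22 ± 0.30, and 1.88 ± 0.088 without WT FBS replicate 1), Glb1 (0.49 ± 0.17) and the iduronate sulfatase Ids (0.44 ± 0.10), and when paused Naglu (1.97 ± 0.46), Ctsz (0.91 ± 0.14), Gusb (0.85 ± 0.10) and Gla (0.59 ± 0.17). All 8 genes higher in FBS were also called without WT FBS replicate 1, and 12 more were called then. The calls of these 12 depend on the choice of that library and are no independent result. Of these 12, Grn, whose product supports lysosomal enzymes, changed most (0.46 ± 0.37 with that library and 1.34 ± 0.097 without it). The others were Naglu (0.80 ± 0.25 without it), Npc1 (0.74 ± 0.071), Ctsc (0.74 ± 0.14), Ctsd (0.54 ± 0.082), Ctsz, Arsa, Mitf, Ctsb, Lamp2, Psap and Atp6v0a1 (0.25 to 0.52).

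The v-ATPase subunits were lower in KO cells in 3 of 4 cases in both media. Atp6v1a measured 148, 152 and 151 CPM in WT and 60.4, 67.3 and 73.2 in KO cells in FBS, and 125, 120 and 148 in WT and 64.1, 66.8 and 62.0 in KO cells when paused. The difference was -1.17 ± 0.098 in FBS (adjusted p = 9.46e-07) and -1.02 ± 0.098 when paused (adjusted p = 3.39e-06), with no overlap and at nearly the same size (-1.15) without WT FBS replicate 1. Atp6v1h, a regulatory subunit, gave -0.92 ± 0.10 in both media (-0.78 ± 0.072 in FBS without WT FBS replicate 1), and Atp6v0d1 gave -1.20 ± 0.23 in FBS (-0.75 ± 0.090 without WT FBS replicate 1) and -0.72 ± 0.23 when paused. Atp6v0a1 of the membrane sector was not called in either with all libraries, and was called higher in FBS without WT FBS replicate 1 (0.25 ± 0.10). Among the other v-ATPase subunits, 7 of 11 tested were lower and 1 higher in FBS, led by Atp6v1b2 (-1.23 ± 0.14) and Atp6v1e1 (-1.11 ± 0.12), and 2 were lower and 1 higher when paused. As shares of the 11 these were 63.6% lower in FBS, where 29.4% of all tested genes were, and 18.2% lower when paused, where 23.9% were. Without WT FBS replicate 1, 6 were lower and 2 higher in FBS.

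Other genes lower in KO were Manba (-2.55 ± 0.083 in FBS, -0.74 ± 0.078 when paused), the heparan sulfamidase Sgsh (-1.52 ± 0.42 and -1.29 ± 0.38), Ctsf (-0.84 ± 0.21 and -1.33 ± 0.21) and the alpha-mannosidase Man2b1 (-0.80 ± 0.091 and -0.82 ± 0.091). Ctsl was lower in FBS (-1.37 ± 0.28, and -0.78 ± 0.083 without WT FBS replicate 1), and its paused difference of -0.34 ± 0.27 was not called. Of the genes called lower in KO in FBS, 3 were not called without WT FBS replicate 1. Hexa was -1.51 ± 0.59 with it and 0.12 ± 0.10 without it, Mcoln1 was -0.98 ± 0.38 and -0.09 ± 0.089, and Lamp1 was -0.61 ± 0.24 and -0.11 ± 0.079. The calls of Hexa and Mcoln1 were also lost with the replicate block (adjusted p = 0.0964 and 0.0734).

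Each gene was also set beside its 49 nearest tested neighbours on the chromosome. Man2b1 differed by as much as its neighbours, whose median was -1.05 in FBS and -0.83 when paused. The neighbours of Atp6v0d1, on the same chromosome 8, had medians of -0.45 and -0.36, and those of Mcoln1, also on it, -0.39 and -0.33. Lamp1 (-0.61 in FBS and -0.17 when paused) and Asah1 (-0.79 and -0.71) lie there too. The neighbours of Lamp1 had medians of -0.45 and -0.44, and those of Asah1 -0.23 and -0.39. Those of Atp6v1h on chromosome 1 had a median of -0.05 in FBS and of -0.53 when paused. The neighbours of Atp6v1a, Arsb, Cd63 and Smpd1 had medians between -0.16 and 0.42 in both media, far from those genes' own differences. Around Manba on chromosome 3 the neighbours' median was -0.34 in FBS and 0.63 when paused, and their median on pausing was 0.72 in KO cells and -0.26 in WT cells. The neighbours thus moved in the same direction as Manba between genotypes in FBS and on pausing KO cells, and in the opposite direction between genotypes when paused and on pausing WT cells. Over whole chromosomes, the median for KO against WT was -0.47 in FBS and -0.43 when paused on chromosome 8 (770 genes). On chromosome 1 (831 genes) it was -0.28 and -0.44, and on chromosome Y (7 genes) 8.77 and 9.83. KO and WT cells thus also differed in the RNA of whole chromosomes. The part of such regional and chromosome-wide differences in the results was not tested.

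**Figure D4:**
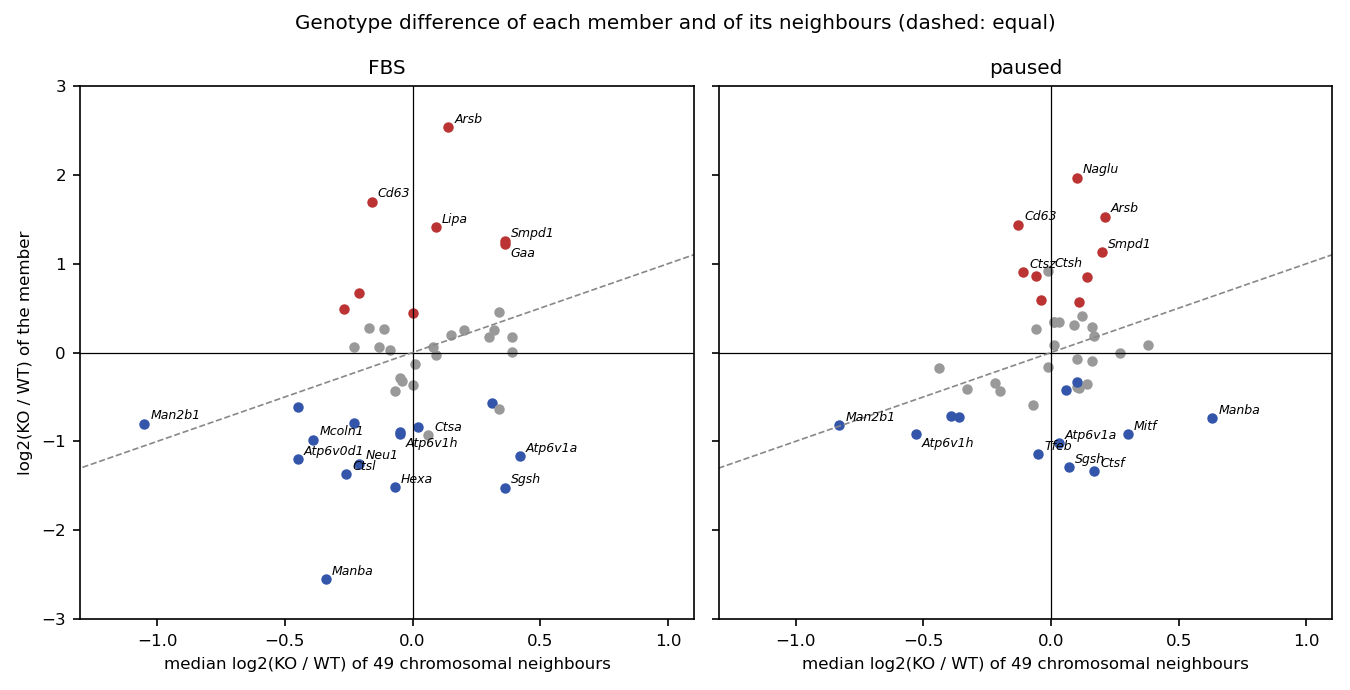
For each of the 44 genes, its log2 ratio of KO to WT (vertical axes) against the median of its 49 nearest tested neighbours (horizontal axes), in FBS and when paused; red, blue and grey as for pausing, and the dashed line marks equal values. Man2b1 lies close to the dashed line in both panels, while Arsb, Cd63, Manba and Atp6v1a lie far from it in FBS.

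The difference between both pausing effects, KO minus WT, was called for 7 of the 44, 4 higher and 3 lower, against 9.61% and 8.26% of all tested genes. Manba had the lowest p (1.81 ± 0.11, adjusted p = 3.62e-06; its neighbours had a median of 0.89), followed by Gusb (0.82 ± 0.14), Mitf, Gla (0.91 ± 0.24), Glb1 (-0.89 ± 0.24) and Arsb (-1 ± 0.28). Ctsz, a carboxypeptidase of the cathepsin family, was called at 0.63 ± 0.20 (adjusted p = 0.0489) and lost with the replicate block (adjusted p = 0.0624), while Scarb2, the carrier of glucocerebrosidase, was gained with it (0.73, adjusted p = 0.0386). Gusb fell in WT cells (17.0, 17.6 and 19.7 CPM to 14.9, 12.9 and 13.1) and rose in KO cells (17.7, 18.4 and 19.5 to 22.7, 26.0 and 25.1). With WT FBS replicate 1 left out, 7 were called higher and 17 lower, against 24.8% and 17.3% of all tested genes. Leaving that library out raises the WT pausing change of most of the 44 and so lowers this difference by that choice. The count of 17 is thus no independent result. Those 17 included Gaa (-1.55 ± 0.11), Grn (-0.99 ± 0.13), Lamp2 (-0.95 ± 0.12) and Cd63 (-0.91 ± 0.10). The counts also moved when WT FBS replicate 2 or 3 was left out (8 and 7 higher) and when any other library was (2 or 3 higher and 1 to 3 lower). Among these, KO FBS replicates 1 and 2, WT paused replicates 1 and 3 and KO paused replicate 2 each gave 2 higher, and KO FBS replicates 1 and 3, WT paused replicate 3 and KO paused replicate 2 each gave 1 lower.

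Per cell, most messages fell on pausing and the lysosomal ones fell somewhat less by their median. Cellular counts per ERCC count were 72.3 to 74.6 for WT FBS, 47.5 to 93.5 for KO FBS, 29.0 to 37.4 for WT paused and 36.5 to 40.3 for KO paused. In WT cells 0 of the 44 were called higher by edgeR (0 also at an unadjusted p under 0.05, and 0 by limma on the deposited log2 values) and 27 fell, against 1.15% and 68.8% of all tested genes, and the median was -0.85 against -1.05 for all tested genes. With WT FBS replicate 1 left out, 0 rose and 14 fell, against 1.59% and 63.9% of all tested genes, and the median was -0.47 against -1.06. These values depend on the choice of that library and are no independent result. Without WT paused replicate 1, 16 fell. Levels of Ctsf (115 ± 39.8% of the WT FBS mean), Tfeb (100.0 ± 36.6%) and Ppt1 (95.4 ± 18.8%) in paused WT cells did not differ from WT FBS beyond their spread, while Ctsc stood at 7.89 ± 1.92% and Lamp1, which fell by 1.44 ± 0.33 per cell, at 36.9 ± 10.8%. In KO cells 3 rose (Manba by 1.72 ± 0.33, Naglu by 0.96 ± 0.36 and Ctsl by 0.77 ± 0.32) and 14 fell, against 2.45% and 45.7%. Leaving out single KO libraries gave 1 to 5 higher and 7 to 21 lower, namely 1 and 21 without KO FBS replicate 1, 5 and 7 without KO FBS replicate 2, 1 and 9 without KO FBS replicate 3, 2 and 7 without KO paused replicate 1, 1 and 11 without KO paused replicate 2 and 1 and 9 without KO paused replicate 3. Between genotypes, per cell, 5 were higher and 10 lower in KO in FBS (background 19.1% and 9.81%), and 10 higher and 1 lower when paused (27.1% and 5.62%). In FBS the counts were 6 and 3 without WT FBS replicate 1 (17.8% and 8.99%), 9 and 6 without KO FBS replicate 1, and 5 and 15 without KO FBS replicate 2. Paused, the 1 lower gene was Ctsf (-0.98), 5 were lower with the replicate block, 2 without WT paused replicate 1, and 0 without WT paused replicate 2 or 3 or KO paused replicate 1 or 3. The difference between both pausing effects was called higher for 4 per cell and lower for 0 (3.04% and 1.66% of all tested genes; 0 lower also at an unadjusted p under 0.05 and by limma). With the replicate block 8 were higher, as without KO FBS replicate 2. Without KO FBS replicate 1 or WT paused replicate 1 there were 2 higher, and without WT FBS replicate 1 there were 1 higher and 0 lower (3.29% and 1.94%). Where no share of all tested genes stands beside a per-cell count, its shift cannot be told from a shift of all genes.

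Genes of the same pathway outside the 44 were read from 6 lists, with 74 of 80 genes tested. In WT cells with all libraries 3 were higher and 7 lower on pausing (4.05% and 9.46%, against 18% and 20.2% of all tested genes). By list, 2 rose and 1 fell of 18 other hydrolases and cofactors, and 1 rose and 1 fell of 15 other membrane proteins. Of 16 genes of Rag and folliculin control 4 fell, and of 11 other v-ATPase subunits 1 fell. Called were 0 of 10 sorting genes and 0 of 9 known Tfeb or Tfe3 targets (median -0.16). In KO cells 21 of the 74 were higher and 6 lower (28.4% and 8.11%, against 23.3% and 19.4%). Without WT FBS replicate 1, where 28.2% of all tested genes were higher and 31.7% lower, 11 of 18 other hydrolases and cofactors rose in WT cells and the other 7 were not called, and 8 of 15 other membrane proteins rose and 2 fell, with the proton channel gene Tmem175 (1.5 ± 0.15) and the cystine exporter Ctns (1.13 ± 0.12) highest in the second list. Among the 74 genes, 59 were higher in WT FBS replicate 1 than the mean of replicates 2 and 3. Leaving it out raises the pausing change of most of them by that choice, so the counts without it are no independent result. Of 9 Tfeb or Tfe3 targets known from other cells, 7 rose and 2 were not called, led by the autophagy gene Wipi1 (1.97 ± 0.17), Fnip1 (1.05 ± 0.084) and Rragd (0.97 ± 0.079). Wipi1, Fnip1 and Rragd were high in the library left out (ratios 4.07, 3.34 and 3.79). Of 10 genes that sort enzymes to the lysosome 2 rose and 1 fell, and of 11 other v-ATPase subunits 4 rose and 1 fell. The list of Rag and folliculin control shares Rragc, Rragd, Flcn, Fnip1 and Fnip2 with the list of Tfeb or Tfe3 targets. Without WT FBS replicate 1 those genes and Rragb rose in WT cells. All 5 Ragulator genes, Lamtor1 to Lamtor5, were then lower by 0.26 to 0.55. With all libraries 0 of these 16 genes rose and 4 fell. The 6 genes that rose were all above the mean of replicates 2 and 3 in the library left out. Lamtor2 (ratio 0.614), Lamtor4 and Lamtor5 were below that mean, while Lamtor1 and Lamtor3 were not. Leaving that library out moves most of these genes apart by that choice, so the division is no independent result. In KO cells Lamtor3 rose (13.8, 12.6 and 14.6 CPM in FBS, 44.6, 45.3 and 41.0 paused; 1.68 ± 0.099), as did Lamtor5 (1.06 ± 0.12). Both differed in their pausing effect from WT cells with all libraries (1.96 ± 0.14 and 1.49 ± 0.18). Sort1, a receptor that sorts hydrolases to the lysosome, rose in KO cells (30.4, 31.0 and 33.0 CPM to 108, 103 and 107; 1.75 ± 0.092) and was not called in WT cells (-0.05 ± 0.092), and the difference was called (1.80 ± 0.13, adjusted p = 7.64e-06). Rragd was higher in KO in FBS (1.55 ± 0.39, and 2.48 ± 0.078 without WT FBS replicate 1) and when paused (2.00 ± 0.39).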

How the data were processed

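RNA from 12 samples was measured as polyadenylated, stranded libraries. The authors deposited raw read counts per gene symbol (24421 gene rows and 92 ERCC rows) and log2 values (14495 rows, 43 of the 44 genes) that the file describes as normalized to cell number. Per the submitters' processing notes, mm10, edgeR 3.32.1, Subread 1.5.0, featureCounts and Trim Galore 0.4.0 were used; the sources used here do not give the aligner, the annotation or the strand setting of the counting. The deposited counts were fitted with edgeR 4.0.16 (R 4.3.3), robust quasi-likelihood, 4 group means over all 12 samples, default count filter (minimum 10, total 15), Benjamini-Hochberg adjustment over 15281 genes, threshold 0.05. Library sizes were gene totals with TMM over genes (relative) or ERCC totals with TMM over ERCC rows (per cell, an error shared by all genes of a library; ERCC was added after extraction). The script was tested on simulated data. Per-library precision is limited by depth, and low genes such as Ctsh are least well measured. Deviations from the group means, correlated over genes, were 0.103 to 0.383 for same-numbered libraries within each comparison of 2 groups. Some differently numbered libraries were closer, such as WT FBS replicate 2 with KO FBS replicate 3 (0.274, against 0.119 with KO FBS replicate 2). The numbers may thus pair samples there, but the check does not settle it and the labels do not say so. The main fits used no block, and the replicate block was an alternative. Over all pairs of groups the correlations were -0.034 to 0.405 (other numbers -0.383 to 0.274), so for the difference between pausing effects the pairing is less sure still. Members and lists were chosen with earlier results of these data known. Genes named were, per comparison, the 4 highest and 4 lowest called, called members moving against the majority, the 6 lowest p for the difference between pausing effects, 8 fixed genes and up to 3 per other list; other members appear with their role group. Positions come from GENCODE vM21, promoters from RefSeq. Alternatives were RLE factors, DESeq2 1.42.0, limma 3.58.1 on the deposited log2 values, ERCC totals with no TMM factor, no count filter, only the groups compared, a replicate block and each library left out.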

Additional observations from a re-analysis of the deposited data

Results flagged for a closer look

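The pausing effect differed between KO and WT cells, by the test of the difference itself, for 7 genes on the relative scale: Mitf (-1.10 on the log2 scale, KO minus WT), Ctsz (0.63), Gla (0.91), Glb1 (-0.89), Gusb (0.82), Manba (1.81) and Arsb (-1). On the per-cell scale it differed for Ctsa (1.49), Hexa (2.14), Naglu (2.28) and Manba (2.08). Without WT FBS replicate 1 the relative values of these 7 were called in the same direction, and of the 4 per-cell values Manba was called (2.13) while Ctsa (0.45), Hexa (0.57) and Naglu (1.46) were not. With the replicate block Ctsa (1.42, adjusted p = 0.35) and Hexa (1.87, adjusted p = 0.33) were not called per cell in edgeR.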

How the results depend on the processing

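Over 5094 values of single genes under the alternatives, 4609 stayed on their side of the threshold (180 of these, called in neither fit, changed sign), 163 gained a call, 308 lost it and 14 with a call in either fit changed sign. These 14 came from leaving out WT FBS replicate 1, and each range over single libraries left out ended there at the end whose sign differs from the value with all libraries. On the relative scale the ranges were, for pausing in WT cells, Cd63 -0.31 to 0.59, Ctsb -0.18 to 0.23 and Hexa -1.11 to 0.92; for KO against WT in FBS, Lamp2 -0.55 to 0.37, Hexa -1.95 to 0.12 and Arsa -0.43 to 0.51; and for the difference between pausing effects, Npc1 -0.39 to 0.29, Mcoln1 -0.31 to 0.89, Ctsb -0.28 to 0.15, Arsa -0.42 to 0.5 and Asah1 -0.31 to 0.27. Per cell they were -1.23 to 0.12 for Ctsa on pausing in WT cells and, for KO against WT in FBS, -1.18 to 0.21 for Ctsa and -1.86 to 0.15 for Hexa. Counts moved by over 1.5 times with only the groups compared (WT pausing 4 higher and 2 lower, KO pausing 27 higher, KO against WT when paused 16 higher, relative), with limma on the deposited log2 values (KO pausing per cell, 9 lower) and with the replicate block (per cell, 5 lower for KO against WT when paused and 8 higher for the difference between pausing effects). The cause was not tested.

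With each library left out in turn, the relative counts ranged as follows: WT pausing 4 to 29 higher and 3 to 6 lower, KO pausing 10 to 12 higher, KO against WT in FBS 7 to 20 higher, difference between pausing effects 2 to 8 higher and 1 to 17 lower. The per-cell counts ranged as follows: WT pausing 14 to 30 lower, KO pausing 1 to 5 higher and 7 to 21 lower, KO against WT in FBS 5 to 9 higher and 3 to 15 lower, KO against WT when paused 0 to 2 lower, difference between pausing effects 1 to 8 higher. Except without WT FBS replicate 1, the shares of all tested genes in these fits are given neither here nor above. Such shifts of the members therefore cannot be told from shifts of all genes. The replicate block changed 7 of 220 relative calls, each given with its value above, and no other relative call; per cell it gained 29 and lost 7 of 220. The difference between pausing effects uses all groups, so a fit of only the groups compared was not run for it. Depth limits genes under 1 CPM, such as Ctsh and some libraries of Arsb and Sgsh, and 3 samples a group limit every test.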
